A study of Mus musculus with 6 samples.

Results

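The 37 genes of the mouse mitochondrial genome were followed in microglia, the macrophages that reside in the brain, from mice given an antibody against human LILRB4 or a control antibody. They were chosen by name, as every row of the deposited count table whose gene symbol starts with mt-, after repeated identifiers were dropped. This gave 37 of 55493 genes. By the table's own gene classes 13 of them are mRNA genes, 2 are rRNA genes and 22 are tRNA genes.

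All 6 libraries came from male ILT Telo Tg x 5XFAD mice. ILT Telo Tg is a transgene that carries human LILR genes, and 5XFAD is a transgenic line that forms amyloid plaques and serves as a model of Alzheimer disease. Dosing began at 4 months of age, and each mouse received 8 weekly intraperitoneal injections at 60 mg/kg. The 3 control libraries were from mice given Ctrl IgG2a (Fc-mutant mAb 27D6) and the 3 treated libraries from mice given anti-LILRB4 (Fc-mutant anti-ILT3 mAb ZM3.1, ILT3 being another name of LILRB4). The Fc part of both antibodies was mutated, and every group carried the transgene and the amyloid background, so there was no group without them. The promoter behind the human genes is not given in the sources used here. The series' design text asks how blocking LILRB4 in vivo changes the microglial transcriptome. Nothing in the labels says whether a library holds 1 mouse or several, so the p-values below measure the spread between libraries only. Cells were sorted as CD45-low CD11b-positive, cDNA was made from 10 ng of total RNA with a kit that does not mark strand, and 150-base paired reads were sequenced.

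Mitochondrial DNA is transcribed from both strands into long precursors that run over many genes. Most tRNA genes lie between the rRNA and mRNA genes, and cutting the tRNAs out of the precursor frees the other RNAs, which are then stabilised or degraded at their own rates. The mRNAs encode core subunits of complexes I, III, IV and V, the chain that transfers electrons to oxygen and makes ATP, while complex II and all other subunits are encoded in the nucleus. In microglia, as in other macrophages, the balance between this chain and glycolysis shifts with activation.

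Total counts per library lay between 39805118 and 56345514, and within each group every pair of libraries differed by more than sampling noise. One noncoding locus, CT010467.1, took from 5.50% to 7.90% of counts. The microglial identity of the libraries was checked with 7 markers, all of them detected, whose summed level was 36295 to 38472 CPM (read counts relative to a library size scaled by TMM, a normalization between libraries) in controls and 38768 to 39477 CPM in treated libraries. Markers of other cells were also present. The 10 neutrophil markers, all tested, summed to 1334, 571 and 611 CPM in control libraries 1, 2 and 3 and to 133, 1129 and 219 CPM in treated libraries 1, 2 and 3. The 4 monocyte markers summed to 43.3 to 89.7 CPM in controls and 24.7 to 66.9 CPM in treated libraries, and the 5 lymphocyte markers to 415 to 450 CPM in controls and 517 to 600 CPM in treated libraries. Those of border-associated macrophages, astrocytes, neurons, oligodendrocytes and endothelial cells each summed to at most 72.5 CPM in any library. No marker of any list was at 0 in all libraries.

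The mitochondrial genome gave a smaller share of all counts in every treated library than in any control library. Its 37 genes held 4.69%, 3.96% and 3.73% of counts in control libraries 1, 2 and 3 and 3.29%, 2.80% and 2.88% in treated libraries 1, 2 and 3. The means were 4.13% ± 0.50 (SD, n = 3) and 2.99% ± 0.264 (SD, n = 3), so the treated mean was 0.724 times the control mean. The lowest control was above the highest treated library, and control library 1 was the highest of all 6. The difference was -1.14 percentage points, and -0.858 without control library 1. An exact two-sided permutation test of 3 libraries against 3 gave p = 0.1, the smallest value this design can reach, so it cannot pass a threshold of 0.05. In bulk RNA, fewer mitochondrial transcripts per cell and a different mixture of cells cannot be told apart. Control library 1 also had the highest summed neutrophil level. Treated library 2 came next in that level and had the lowest mitochondrial share. Of the 10 neutrophil markers, 8 had a negative log2 fold change (treated minus control) and 2 a positive one, with a median of -0.88. Groups did not overlap for 3 of them, all lower, against 7.79% of all genes tested. The 4 monocyte markers were all negative, with a median of -0.68, and their groups overlapped. The summed lymphocyte and microglial markers given above did separate the groups, both being higher in every treated library than in any control. Single markers were mixed. Of 4 lymphocyte markers tested, 2 were negative and 2 positive in log2 fold change, and 1 was higher without overlap. Of 7 microglial markers, 2 were negative and 5 positive, and 2 were higher without overlap, against 6.94% of all genes tested. The part of other cells in the difference was not tested.

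All 3 RNA classes were lower in the treated libraries. The mRNA genes held 2.06% ± 0.173 of counts in controls and 1.64% ± 0.111 in treated libraries (SD, n = 3 each). The rRNA genes held 2.06% ± 0.326 and 1.35% ± 0.161. In the tRNA genes the share was 0.00683% ± 0.00143 in controls and 0.00428% ± 0.000288 in treated libraries. Each of these 3 shares had groups that did not overlap, and an exact permutation p of 0.1, which remained 0.1 after Benjamini-Hochberg adjustment over the 4 shares compared.

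**Figure D1:**
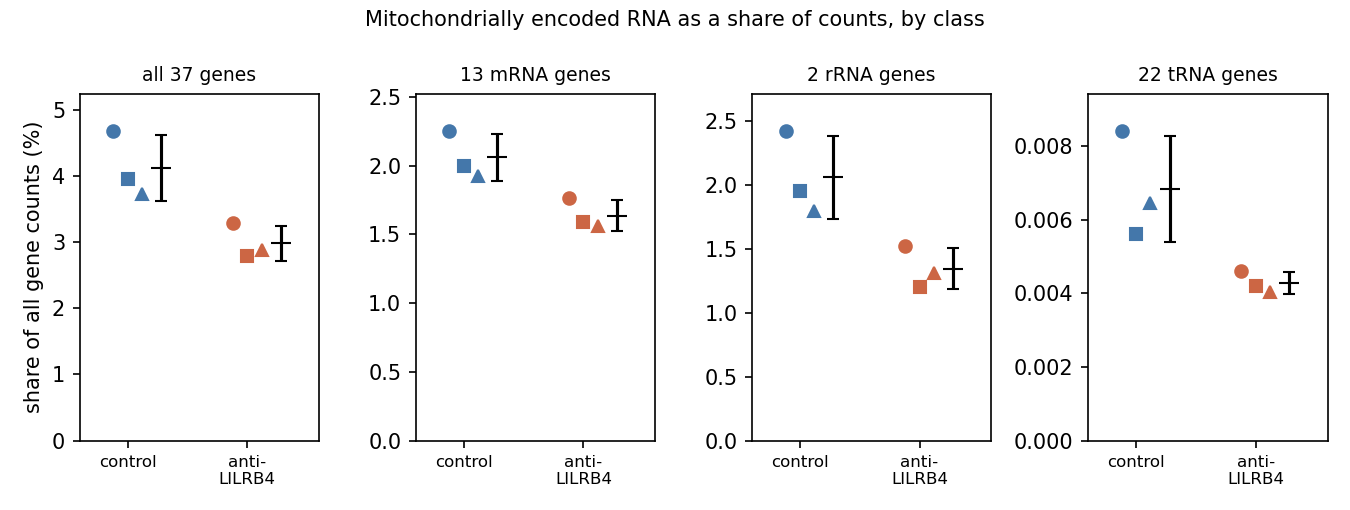
Share of all gene counts (%, vertical axes, each starting at 0) held by all 37 mitochondrial genes and by each RNA class, in control and anti-LILRB4 libraries. Circles, squares and triangles are libraries 1, 2 and 3 of a group, and the bars show the mean and SD; in all 4 panels every treated library lies below every control library.

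Gene by gene, the fit across the whole table left the mitochondrial genes short of its threshold, although most were lower. In edgeR's quasi-likelihood test, adjusted by Benjamini-Hochberg over 18210 genes, 0 members passed 0.05, against 0% of all genes tested in either direction. The smallest adjusted p of a member was 0.386, in edgeR, for mt-Rnr2 and mt-Cytb. All 13 mRNA and 2 rRNA genes passed the filter on low counts, as did 7 tRNA genes. Of these 22 genes, 20 had a negative log2 fold change (treated minus control) and 2 a positive one, with a median of -0.51 against -0.01 over all genes tested. Negative values made up 50.9% of all genes. Without control library 1, 19 were negative and the median was -0.35. A tRNA gene could pass the filter through the control libraries alone, and all 7 tested were negative. Apart from them, 11 of 13 mRNA genes and 2 of 2 rRNA genes were negative, with medians of -0.42 and -0.62.

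At an unadjusted p under 0.05 in edgeR, 12 of the 22 were lower and 0 higher, where 3.91% of all genes were lower. The 12 were 8 mRNA, 2 rRNA and 2 tRNA genes. Groups did not overlap for 15 members, all lower, against 7.79% of all genes. The 15 were 10 mRNA, 2 rRNA and 3 tRNA genes. DESeq2, run as an alternative, called 7 members lower and 0 higher, against 0.553% of the genes it adjusted for lower and 0.546% for higher, and limma-voom called 0. With no filter on low counts edgeR called 8 members lower, against 0.33% of genes. The 7 of DESeq2 were mt-Rnr1, mt-Rnr2, mt-Cytb, mt-Co2, mt-Atp6, mt-Tp and mt-Tq. The authors' deposited table, whose columns are those of DESeq2, lists 30 of the 37 genes and gives the same 7 an adjusted p under 0.05, where 0.477% of its genes are lower and 0.504% higher at that threshold. Since members share precursors and libraries, they are not independent of each other.

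Both rRNAs of the mitochondrial ribosome were lower in each treated library. Among the members the rRNA of the large subunit, mt-Rnr2 (chrM:1094-2675, plus strand, GRCm38 as all positions here), was the most abundant, at 22446, 17578 and 16498 CPM in control libraries 1, 2 and 3 and 13537, 10774 and 12176 CPM in treated libraries 1, 2 and 3. The groups did not overlap, and the gap between the lowest control and the highest treated library was about as wide as the spread among treated libraries. Its log2 fold change was -0.63 (SE 0.12), with adjusted p-values of 0.386 (edgeR) and 0.00616 (DESeq2). The rRNA of the small subunit, mt-Rnr1 (chrM:70-1024, plus strand), measured 2234, 1738 and 1718 CPM in controls and 1421, 1102 and 1222 CPM in treated libraries, again without overlap. It differed by -0.60 (SE 0.13), with adjusted p-values of 0.420 (edgeR) and 0.0101 (DESeq2).

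The pair of rRNAs kept a nearly fixed ratio while both stood lower relative to mRNA. For every 100 counts of mt-Rnr2 there were 10.1 of mt-Rnr1 in controls and 10.3 in treated libraries, with overlapping groups. Per length, mt-Rnr2 was 5.95 times as abundant as mt-Rnr1. Reads on the rRNA genes per read on the mRNA genes were 1.08, 0.980 and 0.935 for control libraries 1, 2 and 3, as against 0.863, 0.757 and 0.845 for treated libraries 1, 2 and 3. This ratio does not depend on a scaling factor between libraries. It did not overlap between the groups, and its log2 value differed by -0.28, with an exact two-sided permutation p of 0.1, the smallest possible.

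The 13 mRNAs spanned a wide range of levels. On the scale of CPM per kilobase of transcript, averaged over the 6 libraries, the order was mt-Nd1 (4899), mt-Cytb (4195), mt-Co1 (3277), mt-Nd3 (1345), mt-Nd2 (967), mt-Nd4 (848), mt-Co3 (493), mt-Nd5 (283), mt-Atp6 (244), mt-Co2 (225), mt-Nd6 (151), mt-Atp8 (15.1) and mt-Nd4l (12.0). The first of these levels was 408 times the last. Neighbours in this order were separate in range between mt-Co1 and mt-Nd3, between mt-Nd4, mt-Co3 and mt-Nd5, and between mt-Co2, mt-Nd6 and mt-Atp8. The ranges of all other neighbours overlapped over the 6 libraries, although within a library the first was above the second in 6 of 6 libraries for each pair but mt-Nd5 and mt-Atp6, where it was so in 5. Levels of genes with near-identical nuclear copies, described further on, are uncertain in this order. So are those of mt-Atp8 and mt-Nd4l, which share bases with mt-Atp6 and mt-Nd4. How shared bases were counted is not given, and mt-Atp8 and mt-Atp6 are carried on one mRNA. The low values of mt-Atp8 and mt-Nd4l thus need not be levels of an mRNA.

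**Figure D2:**
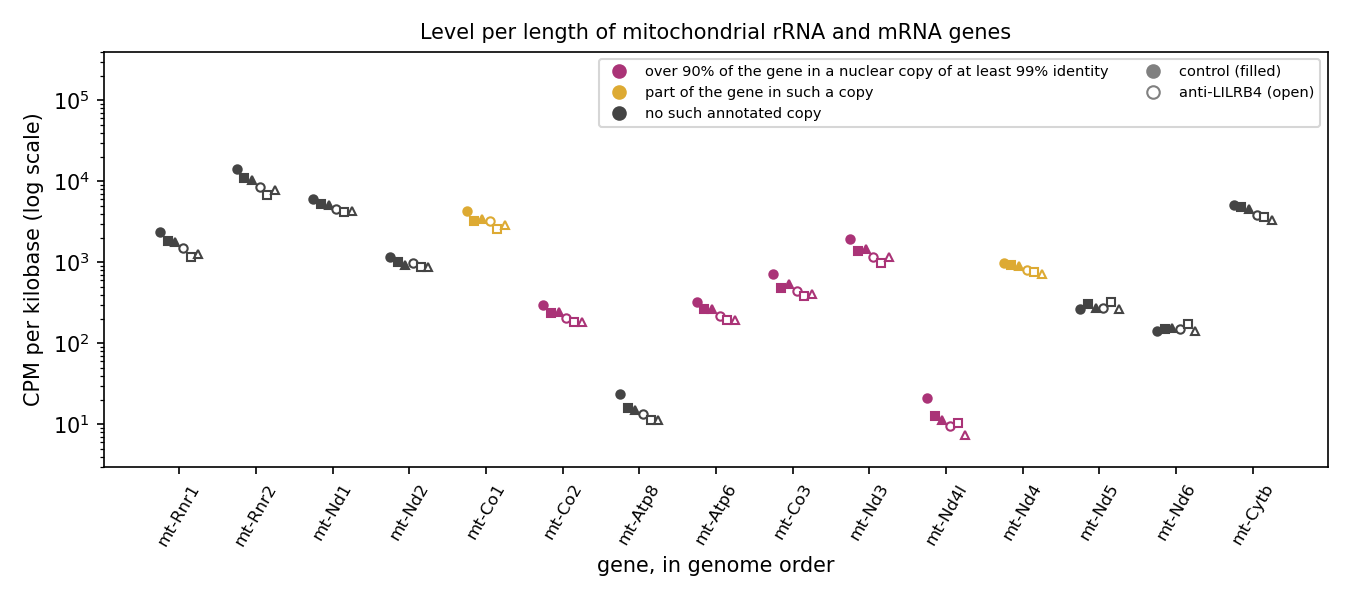
Level of each mitochondrial rRNA and mRNA gene in CPM per kilobase (log scale) against the genes in genome order, with filled symbols for control and open symbols for anti-LILRB4 libraries (circle, square and triangle for libraries 1, 2 and 3). Colour gives the extent of a nuclear copy of at least 99% identity; mt-Nd1, mt-Cytb and mt-Co1 lie highest of the mRNAs and mt-Atp8 and mt-Nd4l lowest.

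Complex I takes electrons from NADH, and 7 of its core subunits are members. Of these 7, 4 were lower without overlap between the groups (mt-Nd1, mt-Nd3, mt-Nd4l and mt-Nd4) and 3 overlapped (mt-Nd2, mt-Nd5 and mt-Nd6). The most abundant, mt-Nd1 (chrM:2751-3707), forms part of the arm's junction near the quinone site and measured 5794, 5068 and 4894 CPM in controls and 4302, 3978 and 4092 CPM in treated libraries. The log2 fold change of this gene was -0.35 (SE 0.08), with adjusted p-values of 0.426 (edgeR) and 0.0787 (DESeq2). The membrane subunit mt-Nd4 (chrM:10167-11544) stood at 1360, 1283 and 1253 CPM in controls and 1098, 1031 and 985 CPM in treated libraries, a difference of -0.32 (SE 0.08).

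For mt-Nd3 (chrM:9459-9806), a small membrane subunit, the values were 676, 479 and 501 CPM in controls and 404, 338 and 410 CPM in treated libraries, a difference of -0.52 (SE 0.14). The smallest subunit, mt-Nd4l (chrM:9877-10173), had few counts, at 6.26, 3.77 and 3.32 CPM in controls and 2.79, 3.07 and 2.16 CPM in treated libraries. Control library 1 stood well above the other 5 for mt-Nd4l: the log2 fold change was -0.73 (SE 0.34) with it and -0.41 without it. In mt-Nd2 (chrM:3914-4951), a pump-like membrane subunit, the treated values of 1012, 905 and 920.3 CPM overlapped the control values of 1190.1, 1039 and 955 CPM. Its log2 fold change of -0.17 (SE 0.10) moved to -0.08 without control library 1.

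The mRNAs of mt-Nd5 and mt-Nd6 were the 2 members with a positive log2 fold change. A large membrane subunit, mt-Nd5 (chrM:11742-13565), was at 480, 558 and 493 CPM in control libraries 1, 2 and 3 and at 498, 596 and 477 CPM in treated libraries 1, 2 and 3. For mt-Nd6 (chrM:13552-14070), the one mRNA gene on the minus strand, the values were 73.3, 78.4 and 79.2 CPM in controls and 78.1, 88.8 and 73.9 CPM in treated libraries. In both genes treated library 2 was the highest of the 6 and the groups overlapped. The log2 fold changes were 0.04 (SE 0.11) for mt-Nd5 and 0.06 (SE 0.12) for mt-Nd6, with adjusted p of 0.961 and 0.929 in edgeR. Left out singly, some libraries turned the sign of both, within -0.059 to 0.11 for mt-Nd5 and -0.0098 to 0.12 for mt-Nd6, while no scaling alternative did.

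These genes run towards each other from opposite strands and share their last 14 bases. Because the kit does not mark strand, reads from either strand count at mt-Nd6, so the mt-Nd6 transcript and any plus-strand transcript that runs over it cannot be told apart. The sequence across their ends is shown for that overlap, on the plus strand at chrM:13522-13595, with the shared bases in capitals.
mt-Nd5 end and mt-Nd6 end: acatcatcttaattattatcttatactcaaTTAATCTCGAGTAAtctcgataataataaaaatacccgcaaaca

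Complex III passes electrons from quinol to cytochrome c, and its single mitochondrial subunit is cytochrome b, mt-Cytb (chrM:14145-15288). It measured 5811, 5441 and 5214 CPM in controls and 4339, 4161 and 3828 CPM in treated libraries. The groups were well apart, with each group's range narrower than the gap between them. The log2 fold change was -0.42 (SE 0.07), with adjusted p-values of 0.386 (edgeR) and 0.0111 (DESeq2). Leaving out any 1 library kept it between -0.46 and -0.37. Among annotated nuclear transcripts the closest match to mt-Cytb was Gm11410, with 92.9% identity over 1142 of 1144 bases and 119 to 258 counts per library.

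Complex IV, cytochrome c oxidase, has 3 mitochondrial subunits, and the groups did not overlap in any of them. The catalytic subunit mt-Co1 (chrM:5328-6872) stood at 6545, 5031 and 5317 CPM in controls and 4967, 4027 and 4494 CPM in treated libraries. Its control library 2 was only slightly above treated library 1, and the log2 fold change was -0.32 (SE 0.11), or -0.20 without control library 1. The copper-binding subunit mt-Co2 (chrM:7013-7696) measured 204, 164 and 167 CPM in controls and 139, 125 and 126 CPM in treated libraries, a difference of -0.45 (SE 0.12) with adjusted p-values of 0.426 (edgeR) and 0.0401 (DESeq2). The last core subunit, mt-Co3 (chrM:8607-9390), gave 555, 380 and 423 CPM in controls and 346, 299 and 316 CPM in treated libraries, a difference of -0.50 (SE 0.14), or -0.33 without control library 1.

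Complex V is the ATP synthase, whose mitochondrial subunits are mt-Atp6 and mt-Atp8, both in its membrane part. Proton-channel subunit mt-Atp6 (chrM:7927-8607) measured 219, 181 and 181 CPM in controls and 149, 132 and 132 CPM in treated libraries. The log2 fold change of this gene was -0.49 (SE 0.12), with adjusted p-values of 0.426 (edgeR) and 0.0202 (DESeq2). The small subunit mt-Atp8 (chrM:7766-7969) was at 4.82, 3.27 and 3.05 CPM in controls and 2.73, 2.31 and 2.31 CPM in treated libraries. It did not overlap either, and differed by -0.60 (SE 0.32), or -0.37 without control library 1.

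The mt-Atp8 and mt-Atp6 reading frames share 43 bases on the same strand (chrM:7927-7969), and the genes are carried on one mRNA. For every 100 counts of mt-Atp6 there were 1.90 of mt-Atp8 in controls and 1.77 in treated libraries. Reads in shared bases match both genes, and how the authors' counting treated them is not given in the sources used here. A like overlap of 7 bases joins mt-Nd4l to mt-Nd4, with 0.340 counts of mt-Nd4l per 100 of mt-Nd4 in controls and 0.257 in treated libraries. In both pairs the groups overlapped. The part of the counting in the low levels of mt-Atp8 and mt-Nd4l was not tested. The stretch around the longer overlap, chrM:7897-7999 on the plus strand, is shown for the bases the genes have in common, in capitals.
mt-Atp8 end and mt-Atp6 start: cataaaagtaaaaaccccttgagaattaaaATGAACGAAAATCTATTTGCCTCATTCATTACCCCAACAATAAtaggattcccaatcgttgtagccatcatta

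**Figure D3:**
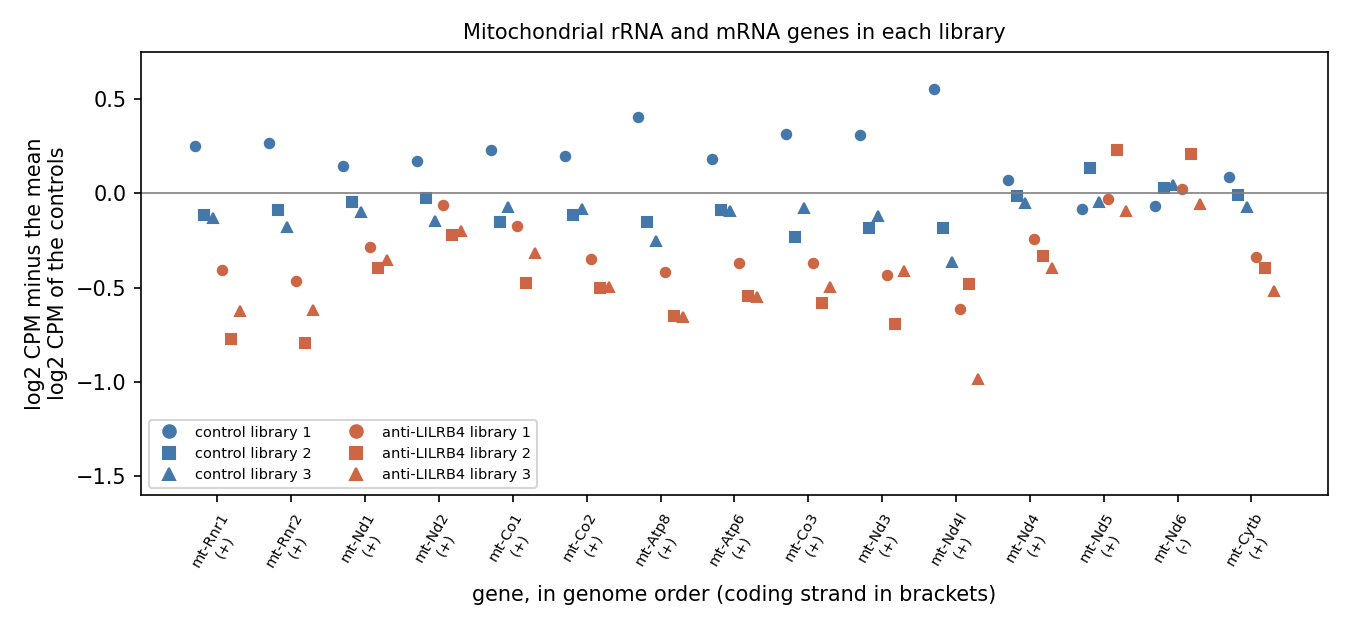
Level of each mitochondrial rRNA and mRNA gene in each library, as log2 CPM minus the mean log2 CPM of the 3 controls (vertical axis), with genes in genome order and their strand in brackets. Blue symbols are controls and orange symbols anti-LILRB4 libraries; the groups are apart for 12 of the 15 genes and overlap for mt-Nd2, mt-Nd5 and mt-Nd6.

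As parts of the mitochondrial mRNA pool, mt-Nd2, mt-Nd5 and mt-Nd6 took more of it in the treated libraries. For mt-Nd5 the share of mitochondrial mRNA counts was 2.09%, 2.83% and 2.53% in controls and 2.87%, 3.80% and 3.01% in treated libraries. The difference of 0.74 percentage points ranged from 0.45 to 0.92 when libraries were left out singly, and was smallest without treated library 2. The share of mt-Nd6 was 0.320%, 0.398% and 0.406% in controls and 0.451%, 0.566% and 0.466% in treated libraries. That of mt-Nd2 was 5.19%, 5.27% and 4.90% in controls and 5.84%, 5.77% and 5.80% in treated libraries.

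In the other direction, mt-Co2 held 0.860% ± 0.0286 of the pool in controls and 0.798% ± 0.00531 in treated libraries, and mt-Atp6 0.935% ± 0.0190 and 0.845% ± 0.0154 (SD, n = 3 each). Complex V as a whole went with mt-Atp6, at 0.953% ± 0.0216 and 0.860% ± 0.0160. These 6 of the 16 shares compared had groups that did not overlap, each with an exact permutation p of 0.1 and an adjusted p of 0.267. The largest parts of the pool overlapped between the groups: mt-Co1 held 27.1% in controls and 27.6% in treated libraries, mt-Cytb 26.6% and 25.2%, and mt-Nd1 25.4% and 25.3%. Complex I held 42.3% and 43.6%, and complex IV 30.2% and 30.3%. Shares of a pool sum to a whole, so they show unequal differences between mRNAs and not that any mRNA kept its level. Genes with near-identical nuclear copies, mt-Co2, mt-Atp6 and mt-Co3 among them, have uncertain counts, as described further on. Their shares, and those of their complexes, are uncertain too.

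Ratios between single genes were also compared, which needs no reference to the pool. For every 100 counts of mt-Cytb there were 9.32 ± 1.01 counts of mt-Nd5 in controls and 12.8 ± 1.45 in treated libraries (SD, n = 3 each), and no library of one group reached the other. Of mt-Nd6 there were 1.41 ± 0.132 and 1.96 ± 0.169 per 100 counts of mt-Cytb, also without overlap. The ratio of mt-Nd6 to mt-Nd5 overlapped, at 15.1 and 15.4 per 100. Between neighbours on the plus strand, mt-Nd2 numbered 20.2 ± 0.580 per 100 counts of mt-Nd1 in controls and 22.9 ± 0.539 in treated libraries, without overlap. These ratios were picked with the values above in view, and are given as a description.

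The tRNA genes were nearly absent from the counts except for those of proline and glutamine. Together mt-Tp and mt-Tq held 92.5% of all tRNA counts. Both lie on the minus strand, and their sequences are shown, read 5′ to 3′ on that strand with no part marked, because nearly all that was measured of this class comes from these stretches (mt-Tp at chrM:15356-15422, mt-Tq at chrM:3772-3842).
mt-Tp: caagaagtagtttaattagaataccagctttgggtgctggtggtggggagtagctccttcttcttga
mt-Tq: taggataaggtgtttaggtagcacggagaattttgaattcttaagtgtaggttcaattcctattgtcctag

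The proline tRNA gene mt-Tp measured 55.0, 35.9 and 45.0 CPM in controls and 29.7, 29.7 and 27.7 CPM in treated libraries. The log2 fold change of this gene was -0.64 (SE 0.17), with adjusted p-values of 0.426 (edgeR) and 0.0352 (DESeq2). The glutamine tRNA gene mt-Tq was at 23.7, 15.8 and 16.2 CPM in controls and 11.6, 9.15 and 9.42 CPM in treated libraries, a difference of -0.89 (SE 0.22) with adjusted p-values of 0.426 (edgeR) and 0.0224 (DESeq2). The groups were apart in both genes. Relative to mt-Nd1, its neighbour across a single tRNA gene, mt-Tq was at 0.351 counts per 100 in controls and 0.244 in treated libraries, without overlap. Relative to mt-Cytb, mt-Tp was at 0.823 and 0.707 per 100, with overlap.

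Of the 22 tRNA genes 7 passed the filter on low counts, and since a gene could pass through the control libraries alone, their common sign supports nothing. Groups were also separate for the asparagine tRNA mt-Tn, which had 27, 17 and 17 counts in controls and 7, 17 and 11 in treated libraries, with the tie in raw counts parted by depth. It differed by -0.97 (SE 0.69). The serine tRNA mt-Ts1 measured 1.21 CPM in controls and 1.20 CPM in treated libraries. The leucine tRNA mt-Tl1 measured 0.851 and 0.536 CPM, the cysteine tRNA mt-Tc 0.646 and 0.445 CPM, and the alanine tRNA mt-Ta 0.460 and 0.264 CPM, all with overlap. Their log2 fold changes were -0.02 (SE 0.46), -0.67 (SE 0.69), -0.54 (SE 0.62) and -0.80 (SE 0.71). Without control library 1 mt-Tl1 was at 0.25, mt-Ts1 at 0.22 and mt-Tc at -0.22, and without treated library 2 mt-Ta was at -0.49.

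By strand, 6 of the 8 minus-strand tRNA genes passed the filter and 1 of the 14 on the plus strand, mt-Tl1. The other 15 tRNA genes reached at most 22 counts in a library, and 11 of them were at 0 in at least 1 library. An example is the tyrosine tRNA mt-Ty, with 7 counts in control library 1 and 0 in the other 5 libraries. A count of 0 allows up to 3 counts, which is 0.0526 to 0.0744 CPM depending on the library, from counting error alone. Reads of 150 bases are longer than any of these genes, so mature tRNAs and longer RNAs that contain them cannot be told apart. The strand is that of the annotation and not of the reads.

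Near-identical nuclear copies complicate the counts of 7 mRNA genes. Each has an annotated nuclear pseudogene that matches it with at least 99% identity over at least 200 bases, and all 7 pseudogenes lie together on the minus strand of chromosome 1 (between 24611535 and 24616197). The match covered 681 of 684 bases for mt-Co2 and Gm28661, 678 of 681 for mt-Atp6 and Gm10925, 783 of 784 for mt-Co3 and Gm28437 and 294 of 297 for mt-Nd4l and Gm10222, all without a mismatch. Reads from these stretches fit both places equally well. In mt-Nd4 the copy Gm28439 matched the first 876 of 1378 bases without a mismatch, and in mt-Co1 the copy Gm29216 matched the last 483 of 1545 bases with 1 mismatch. Below 99% identity, 2 pseudogenes on chromosome 2 also had many counts. Gm13340 matched all 1545 bases of mt-Co1 at 97.6% identity, with 5542 to 9454 counts per library. Gm13341 matched mt-Co2 over its whole length at 95.9% identity, with 2833 to 4943 counts per library.

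The deposited counts of the 7 genes and their chromosome 1 copies fell into separate sets. For mt-Co2, mt-Atp6 and mt-Co3 the gene and its copy had nearly equal counts in all 6 libraries, with 0.856 to 0.891, 0.947 to 1.05 and 1.01 to 1.08 counts of the gene per count of the copy. With few counts, mt-Nd4l had 0.851 to 1.56. In contrast, mt-Co1 had 27.3 to 31.7 counts per count of Gm29216, mt-Nd4 50.5 to 59.6 per count of Gm28439 and mt-Nd3 25.2 to 37.5 per count of Gm28438. The mt-Nd3 copy matched 345 of 348 bases, and its 1 mismatch, T3C counted from the first base of mt-Nd3, lies in the start codon. Both starts are shown for that base, in capitals (mt-Nd3 at chrM:9459-9481 on the plus strand, Gm28438 at chr1:24613097-24613119 on the minus strand).
mt-Nd3 start: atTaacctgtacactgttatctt
Gm28438 start: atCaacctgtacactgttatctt

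The copies stood lower in the treated libraries much as their mitochondrial partners did. Gm28437 measured 437 ± 75.2 CPM in controls and 298 ± 23.4 in treated libraries, Gm28661 206 ± 28.6 and 149 ± 11.0, and Gm29216 202 ± 33.9 and 147 ± 15.9 (SD, n = 3 each), none with overlap. Of 12 pseudogenes of mitochondrial genes listed, 11 were tested. Their log2 fold change was negative in 9 and positive in 2, with a median of -0.47, and edgeR called 0 while DESeq2 called 4 lower, against 0.553% of all genes in DESeq2. Which of the reads at these pseudogenes come from the mitochondrial genome cannot be told apart from the counts. With each mitochondrial gene summed with its copies, a step added after the data were seen, 0 members were called and the smallest adjusted p in edgeR was 0.387. Of the 6 mRNA genes with no such annotated copy, mt-Cytb, mt-Nd1 and mt-Atp8 were lower without overlap, and mt-Nd2, mt-Nd5 and mt-Nd6 overlapped. Copies not annotated as transcripts were not searched for.

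**Figure D4:**
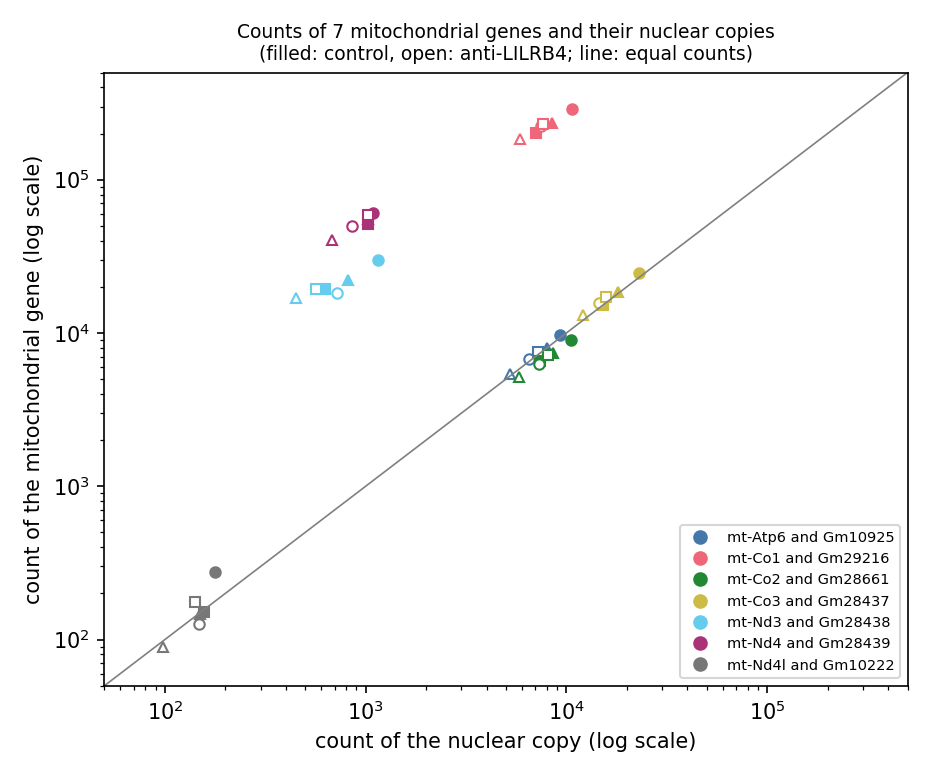
Count of each of 7 mitochondrial genes (vertical axis, log scale) against the count of its nuclear copy (horizontal axis, log scale) in the 6 libraries, filled for control and open for anti-LILRB4 (circle, square and triangle for libraries 1, 2 and 3). The pairs of mt-Co2, mt-Atp6, mt-Co3 and mt-Nd4l lie near the line of equal counts, and those of mt-Co1, mt-Nd3 and mt-Nd4 lie from 25.2 to 59.6 times above it.

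Nuclear genes for subunits of the same complexes were set beside the mitochondrial ones. Of 78 nuclear identifiers listed for complexes I to V, 77 were tested, 58 of them below and 19 above a log2 fold change of 0, with a median of -0.09. None was called: edgeR and DESeq2 gave 0, and at an unadjusted p under 0.05 in edgeR 2 were lower and 1 higher, where 3.91% of all genes were lower and 4.12% higher. The nuclear gene with the smallest p in each complex was Ndufa10 in complex I (35.1 CPM in controls and 49.0 in treated libraries), Sdhc in complex II (191 and 173), Cyc1 in complex III (60.6 and 73.7), Cox7c in complex IV (142 and 111) and Atp5l in complex V (66.8 and 55.4). Ndufa10 was higher and Cox7c lower without overlap, and the other 3 overlapped.

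Within each library the mitochondrial subunits were compared with the nuclear subunits of their complex as a difference in mean log2 CPM. For complex I this difference was 1.97 in controls and 1.76 in treated libraries, for complex III 5.58 and 5.21, for complex IV 2.46 and 2.15, and for complex V -2.35 and -2.80. The groups did not overlap in any of the 4, so the mitochondrial subunits were lower relative to their nuclear partners by 0.21, 0.37, 0.31 and 0.45 on the log2 scale. Each had an exact permutation p of 0.1, the smallest possible, and 0.1 after adjustment over the 4 complexes. Control library 1 was the highest of the 6 for the nuclear subunits of all 4 complexes as well as for the mitochondrial ones. For complex I the value rested on how subunits were averaged: with medians in place of means it was -0.09, with an exact permutation p of 0.6, and with means it was -0.12 without treated library 3. The complex V mean is over 2 genes, mt-Atp6 and mt-Atp8, which averaged 166 and 3.08 CPM over the 6 libraries. The low count of mt-Atp8 thus pulls the level of complex V down, so the negative values of complex V do not place mt-Atp6 below the nuclear subunits. The counts of mt-Atp6 are also uncertain because of its nuclear copy. The same holds for mt-Co1, mt-Co2 and mt-Co3 of complex IV and for mt-Nd3, mt-Nd4l and mt-Nd4 of complex I.

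**Figure D5:**
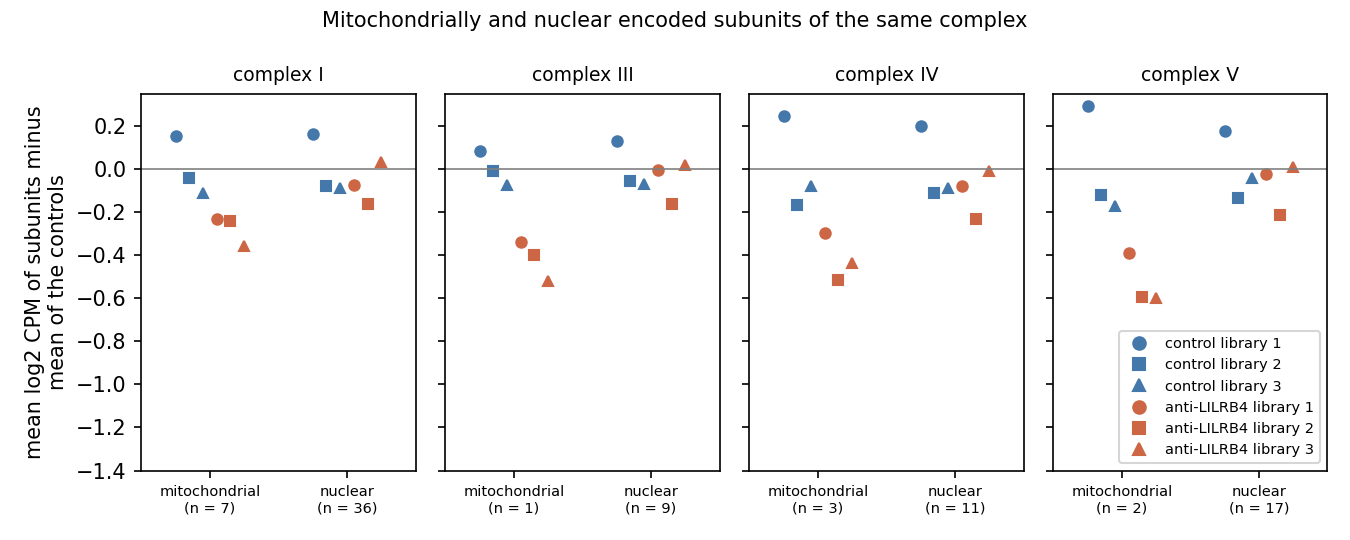
Mean log2 CPM of the mitochondrial and the nuclear subunits of complexes I, III, IV and V in each library, minus the mean of the controls (vertical axis, shared by the panels), with the number of genes below each column. The mitochondrial subunits of treated libraries lie below all controls in each complex, and the nuclear ones overlap the controls.

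Proteins that make and turn over mitochondrial RNA are all encoded in the nucleus, and 64 such genes and genes of mitochondrial DNA upkeep were listed. In the 63 tested the median log2 fold change was 0.06, with 28 negative and 35 positive, and 0 were called by edgeR or DESeq2. At an unadjusted p under 0.05 in edgeR 3 were lower and 4 higher, where 3.91% of all genes were lower and 4.12% higher. Groups did not overlap for 4 lower and 8 higher genes, against 7.79% and 6.94% of all genes. Median values were -0.17 for 10 transcription genes, 0.09 for 19 RNA processing genes, 0.00 for 14 RNA stability and decay genes and 0.12 for 20 DNA upkeep genes.

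The core transcription genes overlapped between the groups. Polrmt, the mitochondrial RNA polymerase, measured 15.3 ± 1.91 CPM in controls and 16.4 ± 1.95 in treated libraries. Tfam, which packages mitochondrial DNA and starts transcription, measured 32.8 ± 4.45 and 27.6 ± 1.99. The initiation factor Tfb2m stood at 18.0 and 17.8 CPM, and the elongation factor Tefm at 41.7 and 36.7 CPM. For Elac2, which cuts tRNAs out of the precursor, the values were 7.03 and 8.44 CPM. The mRNA-stabilising pair Lrpprc and Slirp stood at 32.0 and 31.1 CPM and at 1.16 and 0.689 CPM. Of the degrading complex, Pnpt1 was at 16.6 and 12.8 CPM and its helicase Supv3l1 at 11.2 and 13.6 CPM. The replication helicase Twnk measured 6.78 and 9.45 CPM and the DNA polymerase Polg 11.9 and 11.5 CPM. All of these overlapped between the groups.

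The 5 other machinery genes with the smallest unadjusted p in edgeR included Ppargc1b, a coactivator of nuclear genes for mitochondria, at 1.40, 2.85 and 0.706 CPM in controls and 3.08, 5.27 and 4.78 CPM in treated libraries. The log2 fold change of this gene was 1.41 (SE 0.49), with an adjusted p of 0.523 in edgeR. The tRNA-modifying enzyme Mto1 measured 17.0 ± 2.14 and 23.0 ± 1.04 CPM, higher without overlap, and another one, Cdk5rap1, 16.1 ± 4.14 and 10.7 ± 2.06 CPM, with overlap (SD, n = 3 each). The nucleotide carrier Slc25a33 was at 3.29 ± 0.367 and 1.90 ± 0.380 CPM, lower without overlap. Mterf2, of the termination factor family, was detected at 0.226, 0.149 and 0 CPM in controls and 1.40, 0.876 and 0.486 CPM in treated libraries. With so few counts Mterf2 could pass the filter through the treated libraries alone, so its direction supports nothing. It is among the machinery genes counted above as higher without overlap. The smallest adjusted p of these 5 in edgeR was 0.523.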

How the data were processed

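The authors deposited a table of raw, unscaled read counts by Ensembl gene. Another deposited table holds, per gene, a normalized mean count (signal), a log2 fold change with its error, a score (their ratio) and a p-value with its adjusted form, which per the file headers are DESeq2 columns. Tools listed in the submitters' processing notes, with no role stated, are DESeq2 1.38.3, STAR, Salmon and Subread featureCounts. The build, the annotation and the treatment of multi-mapping reads were not given in the sources used here. From 55780 rows, 287 repeats with identical counts were dropped. Groups were taken from the sample titles.

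Counts were tested with edgeR 4.0.16 in R 4.3.3 (filterByExpr with a minimum count of 10, TMM, quasi-likelihood F test, no covariate), and genes were called at an adjusted p of 0.05. The SE of a log2 fold change is its size divided by the square root of F. Log2 CPM used a prior count of 2. DESeq2 1.42.0, limma 3.58.1 (voom), other scalings and filters, a replicate block, a robust fit and leaving out each library were run as alternatives. Shares, the rRNA to mRNA ratio and complex differences, 1 value per library, were tested by exact permutation in Python 3.11.15. The edgeR, DESeq2 and limma-voom gene tests were checked on simulated counts, with fold changes larger than those of the members. The permutation tests were not part of that check. Plots used Python 3.11.15 with matplotlib 3.10.9.

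Positions and sequences are those of GENCODE M21 (GRCm38), and the 30 members in the authors' table had the same positions there. Nuclear copies are its nuclear transcripts that match a member at 99% identity or more over at least 200 bases. The genes named are all mitochondrial mRNA and rRNA genes, the 5 most abundant tRNA genes and any with separate groups, 11 fixed machinery genes and the 5 others with the smallest p, the nuclear gene with the smallest p per complex, and the 3 most abundant pseudogenes. The alanine tRNA, mt-Ty, Gm11410, Gm13340, Gm13341 and the pseudogenes that are near-identical copies of members were named after their values were seen. Members and lists were chosen with earlier results of these data known. Total counts of 39805118 or more make counting error small for the rRNA and most mRNA genes and larger for mt-Atp8, mt-Nd4l and the tRNA genes other than mt-Tp and mt-Tq.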

Additional observations from a re-analysis of the deposited data

How the results depend on the processing

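With DESeq2, 7 mitochondrial genes were called, and with no filter on low counts edgeR called 8, all lower (0.33% of genes were lower in that fit). Of the listed pseudogenes, these settings called 4 and 2. Every other setting, the libraries left out singly included, called 0 members, and 0 nuclear OXPHOS or machinery genes were called in any. The cause was not tested. Replicate numbers were not taken as a pairing of the libraries. Correlations of same-numbered deviations were 0.01, 0.03 and -0.01 across genes, which does not settle whether libraries were paired. With a replicate block 0 members were called, the smallest adjusted p in edgeR was 0.214, and the exact sign-flip test of shares could not go below 0.25. Shares, the rRNA to mRNA ratio and the complex differences kept their direction in all settings run. In composition, leaving out single libraries turned the sign for mt-Nd1 (-0.29 to 0.21 percentage points), mt-Co1 (-0.37 to 1.37), mt-Nd4 (-0.10 to 0.19) and complex IV (-0.77 to 1.13). The log2 fold change turned for mt-Tl1 (-0.97 to 0.25), mt-Ts1 (-0.19 to 0.22), mt-Nd5 (-0.059 to 0.11), mt-Nd6 (-0.0098 to 0.12), Elac2 (-0.054 to 0.62), Lrpprc (-0.16 to 0.058), Tfb2m (-0.084 to 0.044) and Polg (-0.16 to 0.051). Low counts limit mt-Atp8, mt-Nd4l and the tRNA genes other than mt-Tp and mt-Tq.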
